A study of Arabidopsis thaliana with 12 samples.

Results

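The response to gibberellin A3 (GA3) of Arabidopsis thaliana seedlings that express KNAT1 from the 35S promoter (35S::KNAT1) was read from 6 of the 12 libraries of the study, chosen by their labels and not by measured values. In the first 3, seedlings 7 days old had spent 18 h in liquid medium with 10 µM paclobutrazol (PAC) and then 5 h with 100 µM GA3 added to the PAC (PAC+GA3). In the other 3, seedlings of the same line stayed in 10 µM PAC for those 5 h. The remaining 6 libraries came from wild type of the No-0 (Nossen) accession on the same media, 3 in PAC+GA3 and 3 in PAC, and served to ask where the overexpression line differed, to scale levels and in some alternative fits. All 4 groups had received PAC, so no group shows seedlings with their own gibberellin (GA) supply. The 35S promoter drives KNAT1 in most cell types, the labels do not say how many transgenic lines were used, and RNA came from whole seedlings.

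KNAT1, also called BREVIPEDICELLUS, is a class I KNOX homeodomain protein of the shoot meristem and stem, and KNOX proteins are known to lower GA levels in the meristem by repressing GA 20-oxidase genes and by favouring GA 2-oxidases. Paclobutrazol blocks ent-kaurene oxidase, an early enzyme of GA synthesis, so seedlings in PAC run low on GA and their DELLA repressors accumulate. Added GA3 binds the GID1 receptors, which then hand DELLA proteins to the F-box protein SLY1 for degradation. Plants hold GA in balance by feedback: active GA lowers transcripts of its late synthesis enzymes and receptors and raises those of enzymes that destroy it.

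The 6 libraries held between 9232836 and 12122957 counts. KNAT1 itself, the check of the transgene, stood at 399, 430 and 482 CPM (counts scaled to library size) in the 3 PAC+GA3 libraries and at 432, 389 and 449 CPM in the 3 PAC libraries of 35S::KNAT1, against 17.6 to 24.5 CPM over the 6 wild-type libraries. Its GA3 effect in 35S::KNAT1 was 0.05 ± 0.06 on the log2 scale (SE, n = 3 each), with an edgeR adjusted p of 0.78. Reads of the transgene and of the resident gene cannot be told apart in this table. Replicate 1 of PAC+GA3 stood apart: the rRNA gene AT3G41768 took 1.43% of its counts, against 0.11% to 0.168% in the other 5, and organelle genes took 0.868%, against 0.139% to 0.205%. Its root and root hair markers summed to 167 CPM, against 94.5 to 110 CPM. Of the 89 organelle genes tested, 1 was called, with a median log2 change of 0.74. Libraries that shared a replicate letter (A, B or C, numbered 1, 2 and 3) deviated together from their group means, and the letter was used as a block. No label says whether the replicates were grown as separate cultures; the p-values therefore speak only of how these libraries varied, and that variation could be technical.

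Few genes passed the test of the GA3 effect, and most of those changed by little. Of 19334 genes tested, 297 passed an adjusted p below 0.05 in edgeR's quasi-likelihood test, which is 1.54% of those tested. An unadjusted p below 0.05 was held by 2652 genes, where 967 would be expected without any effect. The calls therefore need not hold every gene that changed. There were 126 higher in PAC+GA3 (0.652%) and 171 lower (0.884%). Only 17 of the 297 changed by 1 or more on the log2 scale, 5 higher and 12 lower, and 206 changed by less than 0.5. The median change was 0.39 among the genes that rose and -0.40 among those that fell, against -0.00167 over all genes tested. All 297 moved the same way in the 3 replicate pairs, and in 240 of them the PAC+GA3 and PAC libraries did not overlap, against 13% of all genes tested. Both numbers follow largely from choosing the 297 by a blocked test on these same libraries. The number of calls rested on the block and on single pairs of libraries. Without the block 37 genes were called, 8 higher and 29 lower, and without pair A, B or C the counts were 609, 148 and 0. All 297 kept their sign in each of these fits. That was nearly fixed in advance, since all had moved the same way in the 3 pairs, and it does not back the calls. In whole seedlings, fewer cells that express a gene and less of its RNA per cell cannot be told apart.

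**Figure D1:**
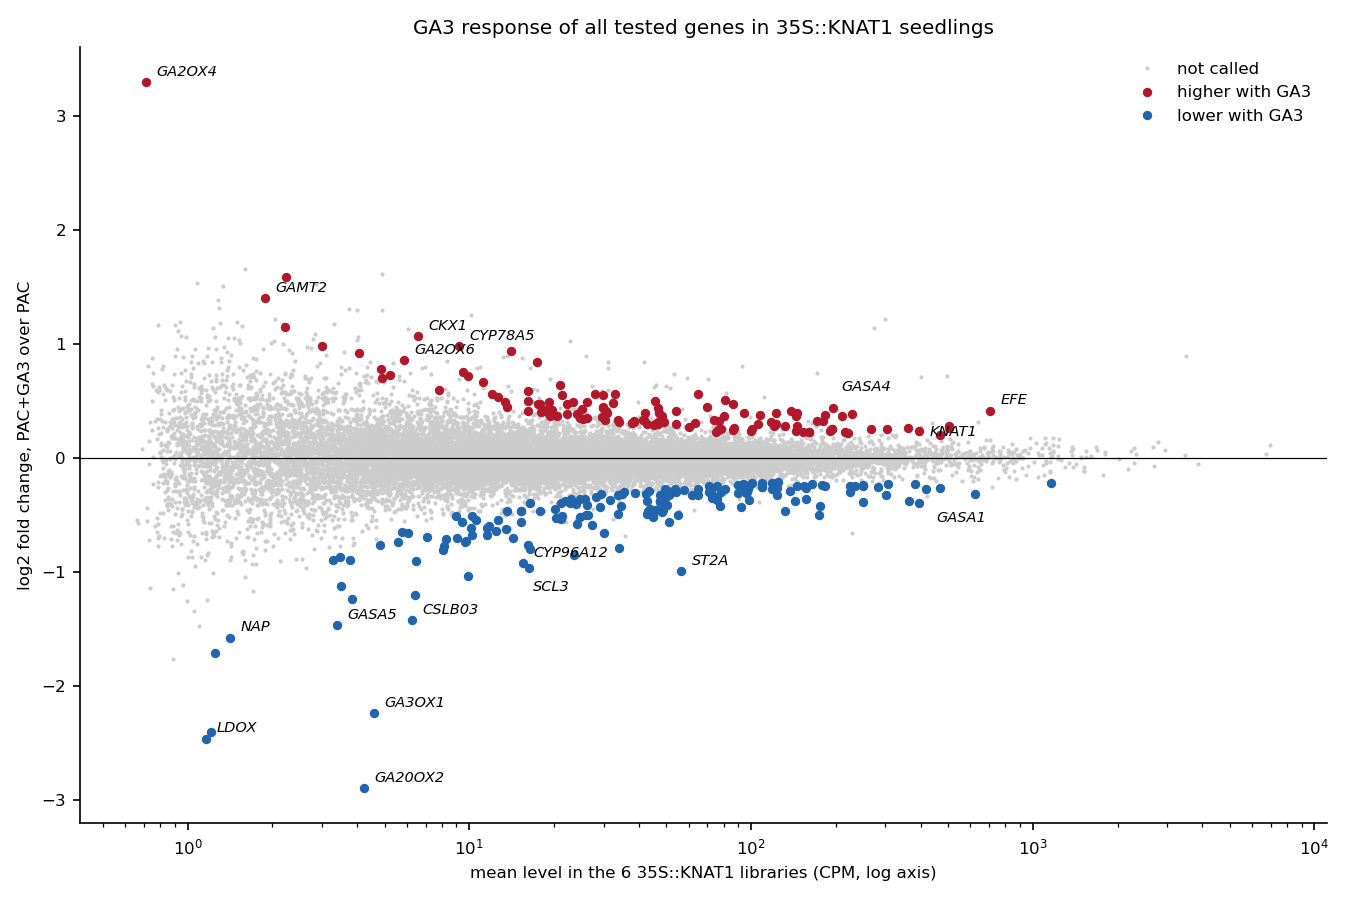
Log2 fold change of PAC+GA3 over PAC in 35S::KNAT1 (vertical axis) against the mean level over the 6 libraries in CPM (horizontal log axis), for the 19334 genes tested. Red points are the 126 genes called higher with GA3, blue points the 171 called lower and grey points the rest; GA20OX2 at -2.90 is the lowest point and GA2OX4 at 3.295 the highest, while KNAT1 lies near 0.

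The deepest fall among all 297 genes was in late GA synthesis. GA20OX2 (AT5G51810, chr5:21055188-21056808, minus strand, TAIR10), a GA 20-oxidase that makes the precursors of active GA, stood at 0.745, 1.25 and 0.963 CPM in PAC+GA3 and at 4.65, 8.81 and 8.99 CPM in PAC. Every PAC+GA3 library lay far below every PAC library, and the PAC library of pair A was the lowest of its group. The fall was -2.90 ± 0.21 (log2, SE, n = 3 each) with an edgeR adjusted p of 5.1e-05. GA3OX1 (AT1G15550, chr1:5344478-5346166, minus strand), the GA 3-oxidase of the last activating step in most seedling tissues, stood at 1.74, 0.986 and 2.01 CPM in PAC+GA3 and at 5.43, 9.21 and 8.14 CPM in PAC, a fall of -2.24 ± 0.24 (adjusted p = 0.0012), again with no overlap. GA3OX2, its partner gene, did not pass the test: 1.49, 1.17 and 0.963 CPM in PAC+GA3 and 0.517, 1.06 and 1.48 CPM in PAC overlapped, with a difference of 0.29 ± 0.40. These 3 were the late genes that passed the low-count filter, of 9 listed. GA20OX1 was too low to be tested, at 0.414, 0.358 and 0.35 CPM in PAC+GA3 and 0.603, 1.14 and 1.59 CPM in PAC.

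The early synthesis list runs from the synthesis of ent-kaurene, through the step that PAC blocks, to the ent-kaurenoic acid oxidases. It had 0 calls among its 4 measured members, against 1.54% of all genes tested, with a median of -0.16. GA3, which despite its name is the gene of ent-kaurene oxidase, stood at 35.5, 36.7 and 40.0 CPM in PAC+GA3 and at 42.7, 41.5 and 48.5 CPM in PAC. The groups did not overlap, but the difference of -0.24 ± 0.06 had an adjusted p of 0.094. KAO2, one of the pair of ent-kaurenoic acid oxidases, showed -0.26 ± 0.07 (adjusted p = 0.088), the other, CYP88A3, -0.07 ± 0.11, and GA2, the ent-kaurene synthase, 0.00 ± 0.08.

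On the inactivation side, 3 of 7 measured members rose, against 0.652% of all genes tested, and 0 fell, with a median of 0.80. This and the other lists were chosen with earlier results of these data known, so such counts are a description only. GA2OX4 (AT1G47990), a GA 2-oxidase, had 12, 12 and 21 counts in PAC+GA3 and 0, 3 and 1 counts in PAC. All PAC+GA3 libraries lay above all PAC libraries, at a rise of 3.295 ± 0.60 (adjusted p = 0.017), but a fold change built on so few counts in PAC is loosely fixed. GA2OX6 (AT1G02400), of the same enzyme family, stood at 7.20, 8.24 and 7.27 CPM in PAC+GA3 and at 5.00, 3.995 and 3.49 CPM in PAC, a rise of 0.86 ± 0.16 (adjusted p = 0.018). GAMT2, a methyltransferase that inactivates GA and is best known from seeds, stood at 4.72, 2.15 and 1.31 CPM in PAC+GA3 and at 2.07, 0.815 and 0.211 CPM in PAC. Its groups overlapped because pair A was high and pair C low in both media, yet every pair rose, by 1.40 ± 0.29 (adjusted p = 0.030). GA2OX2 and GA2OX8 showed 0.70 ± 0.26 and 0.80 ± 0.32 without passing, and the GA-deactivating P450 genes CYP714A1 and CYP714A2 showed 0.20 ± 0.28 and -0.04 ± 0.34. Without the replicate block none of the 3 rises in this list was called, whereas GA20OX2 and GA3OX1 were.

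The receptors and the DELLA side moved in both directions, with 1 of 11 measured members higher, 4 lower and 6 not called. Over all genes tested 0.652% were called higher and 0.884% lower. The receptor gene GID1A stood at 17.7, 19.4 and 21.0 CPM in PAC+GA3 and at 27.0, 29.7 and 30.0 CPM in PAC, a fall of -0.58 ± 0.08 (adjusted p = 0.0023). GID1B stood at 7.86, 6.18 and 6.56 CPM in PAC+GA3 and at 9.47, 13.5 and 10.7 CPM in PAC, a fall of -0.70 ± 0.15 (adjusted p = 0.040). Neither receptor gene had overlapping groups. GID1C, the remaining receptor gene, showed 0.10 ± 0.09 with overlapping groups and did not pass. SLY1, the F-box gene of DELLA turnover, averaged 16.6 ± 2.1 CPM in PAC+GA3 and 24.0 ± 1.5 CPM in PAC (SD, n = 3 each), a fall of -0.53 ± 0.10 (adjusted p = 0.022). SCL3, a GRAS-family gene that antagonises DELLA action and is itself a direct DELLA target, stood at 11.1, 10.13 and 11.6 CPM in PAC+GA3 and at 16.8, 23.9 and 24.1 CPM in PAC, a fall of -0.97 ± 0.12 (adjusted p = 0.0017).

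Among the DELLA genes, which encode the repressors that GA removes, GAI alone passed the test. GAI stood at 35.5, 31.7 and 37.6 CPM in PAC+GA3 and at 26.8, 25.4 and 27.4 CPM in PAC, a rise of 0.40 ± 0.07 (adjusted p = 0.015) with no overlap. The other 4 had positive values that did not pass: RGA1 0.23 ± 0.05 (adjusted p = 0.053), RGL1 0.43 ± 0.11 (adjusted p = 0.079), RGL2 0.42 ± 0.15 (adjusted p = 0.24) and RGL3 0.19 ± 0.19 (adjusted p = 0.72). RGA1 was called when no low-count filter was applied and when rRNA and organelle genes were left out. SLY2, the close homologue of SLY1, was near 1 CPM in every library and did not pass. Without the block SCL3 and GID1A were called in this list and GID1B, SLY1 and GAI were not.

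**Figure D2:**
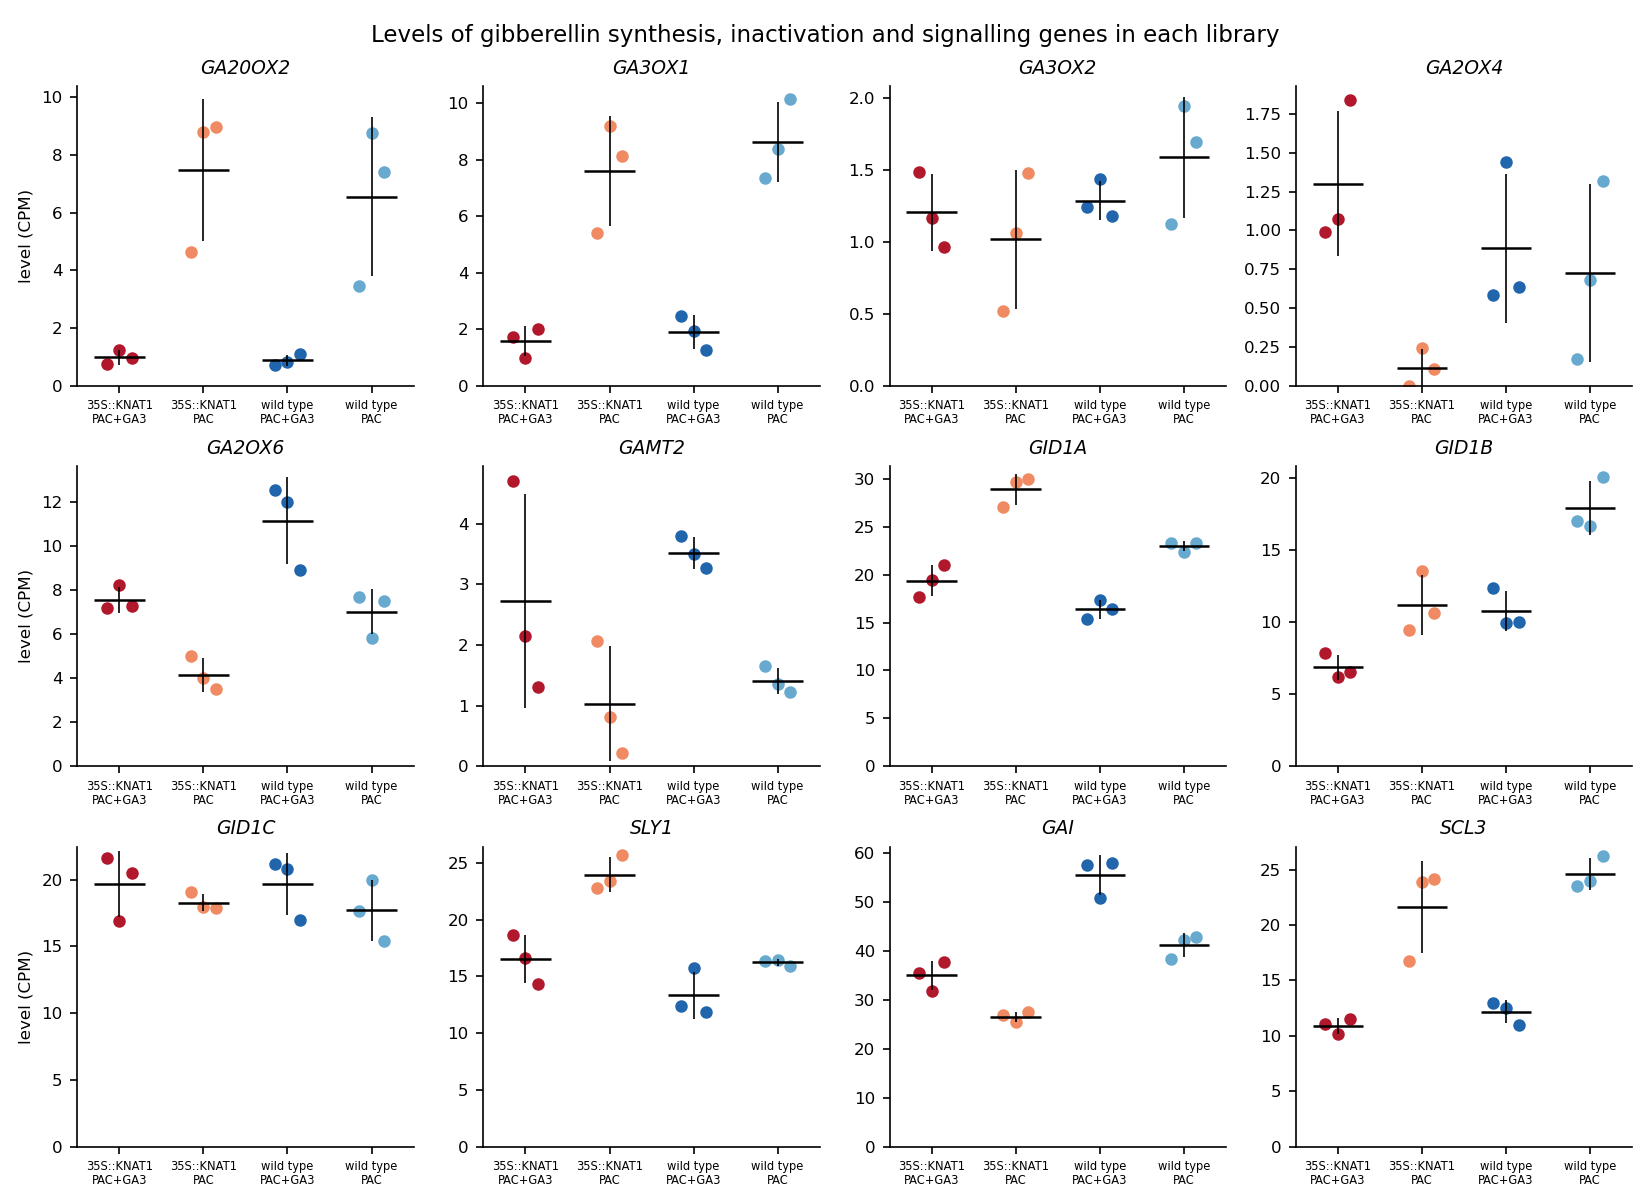
Levels in CPM (vertical axes from 0, a scale for each gene) of 12 GA genes in the 3 libraries of each group, with pairs A, B and C from left to right, the mean as a horizontal bar and 1 SD as a vertical bar. In 35S::KNAT1 the PAC+GA3 libraries lie below the PAC libraries for GA20OX2, GA3OX1, GID1A, GID1B, SLY1 and SCL3 and above them for GA2OX4, GA2OX6 and GAI, and the wild-type libraries are drawn to their right.

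In the list of early GA targets reported as bound by DELLA proteins, 6 of 10 measured members fell, against 0.884% of all genes tested, and 0 rose. All 10 had negative values, with a median of -0.66. Because the members were chosen with earlier results of these data known, these counts do not back the calls. The falls were GA20OX2, GA3OX1, SCL3, GID1A and GID1B, already given, and XERICO, a RING protein gene tied to abscisic acid levels. XERICO stood at 7.61, 7.98 and 8.32 CPM in PAC+GA3 and at 11.02, 13.4 and 12.4 CPM in PAC, a fall of -0.62 ± 0.11 (adjusted p = 0.017). The other 4 members measured, among them IQD22 at -0.41 and EXPA8 at -0.00 (-0.000342), did not pass. Of 4 genes listed as GA transporters, 2 were measured. AT1G68570, the gene of the GA and nitrite transporter NPF3.1, stood at 39.2, 38.6 and 33.0 CPM in PAC+GA3 and at 53.4, 52.6 and 53.2 CPM in PAC, a fall of -0.52 ± 0.07 (adjusted p = 0.0021). SWEET13, a sugar transporter gene whose protein also carries GA, had no overlap, with 3.48, 2.87 and 2.36 CPM in PAC+GA3 and 2.24, 1.47 and 0.634 CPM in PAC, but its 1.00 ± 0.27 did not pass (adjusted p = 0.099).

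The 250 bases before the RefSeq start of genes that moved are shown for GA20OX2, GA3OX1 and SCL3, the GA genes with the deepest falls among synthesis and signalling genes, for ST2A and CSLB03, among the largest falls outside the GA lists, and for GA2OX6 and CYP78A5, which rose. The sequence is that of RefSeq TAIR10.1, read 5′ to 3′ on the gene's strand. Capitals mark matches on either strand to CACGTG (G-box), TGACAG (core of maize KNOX sites), TAACAAA (GA-responsive element of cereal amylase genes), TTTGTC (core bound by INDETERMINATE DOMAIN proteins, which recruit DELLA) and TGTCTC (auxin response element). The TTTGTC and TGTCTC motifs can share letters, as they do in GA3OX1.
GA20OX2 (chr5:21056882-21057131, minus strand): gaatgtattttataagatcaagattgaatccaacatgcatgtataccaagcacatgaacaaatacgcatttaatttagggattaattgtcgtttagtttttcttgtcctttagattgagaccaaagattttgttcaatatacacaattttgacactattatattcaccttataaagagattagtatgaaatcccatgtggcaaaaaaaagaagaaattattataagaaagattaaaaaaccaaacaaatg
GA3OX1 (chr1:5346343-5346592, minus strand): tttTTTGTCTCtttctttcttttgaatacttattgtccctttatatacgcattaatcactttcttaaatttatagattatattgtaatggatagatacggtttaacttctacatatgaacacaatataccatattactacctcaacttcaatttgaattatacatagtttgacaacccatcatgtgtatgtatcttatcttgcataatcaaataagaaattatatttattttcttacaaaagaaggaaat
SCL3 (chr1:18680301-18680550, minus strand): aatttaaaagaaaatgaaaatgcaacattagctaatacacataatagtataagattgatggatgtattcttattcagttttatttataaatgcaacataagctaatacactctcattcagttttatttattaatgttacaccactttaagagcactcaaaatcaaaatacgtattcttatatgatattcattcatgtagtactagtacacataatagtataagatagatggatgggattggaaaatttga
ST2A (chr5:2176447-2176696, minus strand): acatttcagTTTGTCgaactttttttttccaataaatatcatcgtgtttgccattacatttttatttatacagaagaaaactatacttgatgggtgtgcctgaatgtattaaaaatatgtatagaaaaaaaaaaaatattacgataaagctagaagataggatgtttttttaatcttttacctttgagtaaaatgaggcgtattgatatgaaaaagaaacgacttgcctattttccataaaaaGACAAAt
CSLB03 (chr2:13808769-13809018, plus strand): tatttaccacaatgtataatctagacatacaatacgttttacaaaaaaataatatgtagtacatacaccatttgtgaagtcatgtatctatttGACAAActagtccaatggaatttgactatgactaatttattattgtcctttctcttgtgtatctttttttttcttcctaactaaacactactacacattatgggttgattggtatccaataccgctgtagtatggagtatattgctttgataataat
GA2OX6 (chr1:486550-486799, plus strand): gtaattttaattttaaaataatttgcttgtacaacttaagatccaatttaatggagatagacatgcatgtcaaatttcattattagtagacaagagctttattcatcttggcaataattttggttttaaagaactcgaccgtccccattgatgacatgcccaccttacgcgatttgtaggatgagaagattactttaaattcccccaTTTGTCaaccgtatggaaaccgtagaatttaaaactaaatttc
CYP78A5 (chr1:4704695-4704944, minus strand): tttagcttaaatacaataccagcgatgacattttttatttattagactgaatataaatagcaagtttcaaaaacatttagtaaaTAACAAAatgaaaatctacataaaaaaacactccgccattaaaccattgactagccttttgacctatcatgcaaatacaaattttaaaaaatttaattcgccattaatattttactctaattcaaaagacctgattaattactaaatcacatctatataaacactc

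None of the 5 motifs matched in the windows of GA20OX2 and SCL3. TTTGTC matched once in those of GA3OX1, CSLB03 and GA2OX6, and at both ends of that of ST2A, 241 and 7 bases before the start. TAACAAA matched once in that of CYP78A5, 166 bases before the start. Over whole sets, TTTGTC was in 39.6% of the 169 windows of called-lower genes and 18.5% of the 124 windows of called-higher genes, against 24.9% of the 19164 windows of tested genes and 23.6% of all 31900 windows of the table. Of the 12 largest falls named by rule, 6 held it, and of the 12 largest rises, 5. Both falls shown from outside the GA lists, ST2A and CSLB03, held it. Of the large falls outside those lists that are not shown, NAP, TRM13 and CYP96A12 held it, and LDOX, BZS1 and AIG1 did not. The mean A+T content of the windows was 69.5% for lower, 69.9% for higher and 68.5% for tested genes. The other motifs lay nearer to their background shares. TGACAG was in 4.73% of lower and 5.65% of higher windows, against 5.8% of tested ones, and CACGTG in 7.1% and 9.68%, against 7.29%. TAACAAA was in 13% and 17.7%, against 16.2%, and TGTCTC in 12.4% and 7.26%, against 10.5%. These shares are descriptions without a test, and a match is not a binding site.

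GASA genes encode small cysteine-rich peptides, several of which are classical GA-responsive genes. Of 15 listed, 8 were measured, and 1 rose while 2 fell, against 0.652% higher and 0.884% lower among all genes tested. GASA4, known to be induced by GA, stood at 187, 192 and 192 CPM in PAC+GA3 and at 140, 162 and 154 CPM in PAC, a rise of 0.33 ± 0.05 (adjusted p = 0.0059). GASA1 moved the other way, with 362, 366 and 297 CPM in PAC+GA3 and 488, 448 and 414 CPM in PAC, a fall of -0.40 ± 0.05 (adjusted p = 0.0018). GASA5 stood at 1.82, 2.51 and 1.05 CPM in PAC+GA3 and at 5.08, 4.65 and 5.18 CPM in PAC, a fall of -1.46 ± 0.24 (adjusted p = 0.0090). No library of these 3 genes lay within the range of the other medium. Without the block GASA5 was called and GASA1 and GASA4 were not.

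Among KNOX genes, their BELL partners and boundary genes, 1 of 21 measured members fell, 0 rose, and the median was 0.09. With 0.884% of all genes tested called lower, 1 call is too few to set the list apart. ATH1, a BELL homeobox gene that keeps stems short in rosettes, stood at 22.3, 29.1 and 31.4 CPM in PAC+GA3 and at 29.0, 37.2 and 41.0 CPM in PAC. The groups overlapped, since the A libraries were low in both media, and each pair fell, by -0.37 ± 0.07 (adjusted p = 0.017). KNAT4, a class II KNOX gene, showed -0.27 ± 0.09 (adjusted p = 0.17), the class I gene STM -0.13 and BEL1, a BELL gene of the ovule, 0.16 ± 0.07 (adjusted p = 0.36). ATH1 was not called without the block.

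CYP78A5, the KLUH gene whose P450 enzyme sustains organ growth from the boundary region, rose in every pair. CYP78A5 stood at 12.7, 10.8 and 13.2 CPM in PAC+GA3 and at 6.80, 6.36 and 5.29 CPM in PAC, so that the lowest PAC+GA3 library was well above the highest PAC library. The rise was 0.98 ± 0.13 (adjusted p = 0.0026), and it was also called without the block. The other 3 measured CYP78A genes did not pass, with CYP78A7 at -0.38 ± 0.15 and CYP78A8 at 0.18 ± 0.13. In the cytokinin list 1 of 15 measured members rose and 1 fell, against 0.652% and 0.884% of all genes tested, too few to set the list apart. CKX1, which encodes an enzyme that breaks cytokinin down, stood at 10.8, 8.96 and 7.002 CPM in PAC+GA3 and at 5.08, 4.24 and 3.38 CPM in PAC. The rise of 1.07 ± 0.14 (adjusted p = 0.0019) was nearly the same in each pair, at 1.05, 1.05 and 1.01, and was also called without the block. ARR4, a type-A response regulator that damps cytokinin signalling, fell by -0.32 ± 0.06 (adjusted p = 0.014), with levels that averaged 54.7 ± 4.8 CPM in PAC+GA3 and 68.5 ± 7.8 CPM in PAC (SD, n = 3 each), and was not called without the block. IPT3, a cytokinin synthesis gene, showed -0.28 ± 0.11 (adjusted p = 0.24).

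Genes of growing walls gave calls in both directions. Expansins, which loosen walls, had 1 rise and 0 falls among 22 measured members, with a median of 0.07. With 0.652% of all genes tested called higher, 1 rise is too few to set them apart. EXP3, an alpha-expansin, stood at 138, 115 and 138 CPM in PAC+GA3 and at 121, 93.5 and 100 CPM in PAC. It rose in every pair, by 0.32 ± 0.06 (adjusted p = 0.015), although the groups overlapped. EXPA1 stood at 116, 131 and 147 CPM in PAC+GA3 and at 103, 78.8 and 90.6 CPM in PAC; its groups did not overlap, but 0.53 ± 0.13 did not pass (adjusted p = 0.23). Among the xyloglucan-remodelling XTH genes 3 of 23 fell, against 0.884% of all genes, and 0 rose. The list as a whole did not lean down, since 13 members had positive and 10 negative values, with a median of 0.05. XTH32 stood at 23.0, 21.5 and 20.6 CPM in PAC+GA3 and at 29.4, 34.3 and 34.4 CPM in PAC, a fall of -0.59 ± 0.09 (adjusted p = 0.0036). XTH9 fell by -0.37 ± 0.05 (adjusted p = 0.0033) and XTH31 by -0.24 ± 0.05 (adjusted p = 0.037). The lists of secondary walls, the subject of the study's title, held 11 regulators, 15 cellulose and xylan genes and 21 lignin genes that were measured. Of these, 0 passed in either direction, with medians of -0.05, 0.02 and 0.04. Over all genes tested 1.54% passed, so 0 calls in lists of this size is no result about secondary walls. The regulator with the smallest p, the vessel NAC gene NAC101, showed -0.90 ± 0.30 (adjusted p = 0.18) on levels between 0.788 and 2.12 CPM. PARVUS, a xylan synthesis gene, showed 0.49 ± 0.14 (adjusted p = 0.13), and HCT, of lignin precursor synthesis, 0.12 ± 0.05 (adjusted p = 0.33). EXP3, XTH9 and XTH31 were not called without the block, and XTH32 was.

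Flavonoid and anthocyanin genes had 2 falls, against 0.884% of all genes tested, and 0 rises among 13 measured members, with a median of -0.17. LDOX, the leucoanthocyanidin dioxygenase of anthocyanin synthesis, stood at 0.331, 0.269 and 0.438 CPM in PAC+GA3 and at 1.21, 1.79 and 2.96 CPM in PAC. Its fall of -2.46 ± 0.38 (adjusted p = 0.0061) rested on low counts, but no libraries overlapped. FLS1, the flavonol synthase, only just passed, at -0.30 ± 0.07 (adjusted p = 0.04977), with overlapping groups, and was not called under most other settings. Other hormone pathways gave single calls. EFE, an ACC oxidase of ethylene synthesis, stood at 881, 715 and 821 CPM in PAC+GA3 and at 685, 540 and 591 CPM in PAC, a rise of 0.41 ± 0.05 (adjusted p = 0.0012) that measured 0.36, 0.41 and 0.48 in the 3 pairs. BR6OX1, a brassinosteroid 6-oxidase, rose by 0.70 ± 0.16 (adjusted p = 0.048), while its homologue BR6OX2 showed -0.24 ± 0.06 (adjusted p = 0.081). The call of BR6OX1 held in only 4 of 12 alternative fits and was lost without pair A, B or C. EFE and BR6OX1 were the 2 rises among 12 measured brassinosteroid and ethylene genes, with 0 falls, where 0.652% of all genes tested rose. Of 19 measured auxin response genes, DFL1, a GH3 enzyme gene that conjugates auxin, rose by 0.28 ± 0.05 (adjusted p = 0.022), and 0 fell. Beside the 0.652% of all genes tested, 1 rise is too few to set that list apart. Without the block the calls of FLS1, EFE, BR6OX1 and DFL1 were lost.

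In 4 further lists 0 members passed in either direction, against 1.54% of all genes tested, a share at which lists of this size can hold none: 16 growth bHLH factors (median 0.04), 20 mitotic cell cycle genes (0.07), 16 jasmonate and wounding genes (0.06) and 11 low-oxygen genes (-0.07). Among these, BNQ2, a growth-promoting bHLH gene, had no overlap, at 3.39, 3.94 and 3.76 CPM in PAC+GA3 and 5.86, 5.30 and 5.71 CPM in PAC, but -0.60 ± 0.17 did not pass (adjusted p = 0.10). The D-type cyclin gene CYCD3;3 showed -0.27 ± 0.09 (adjusted p = 0.17), the jasmonate repressor gene JAZ10 -0.42 ± 0.17 (adjusted p = 0.28) and the haemoglobin gene HB1 0.24 ± 0.06 (adjusted p = 0.087).

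**Figure D3:**
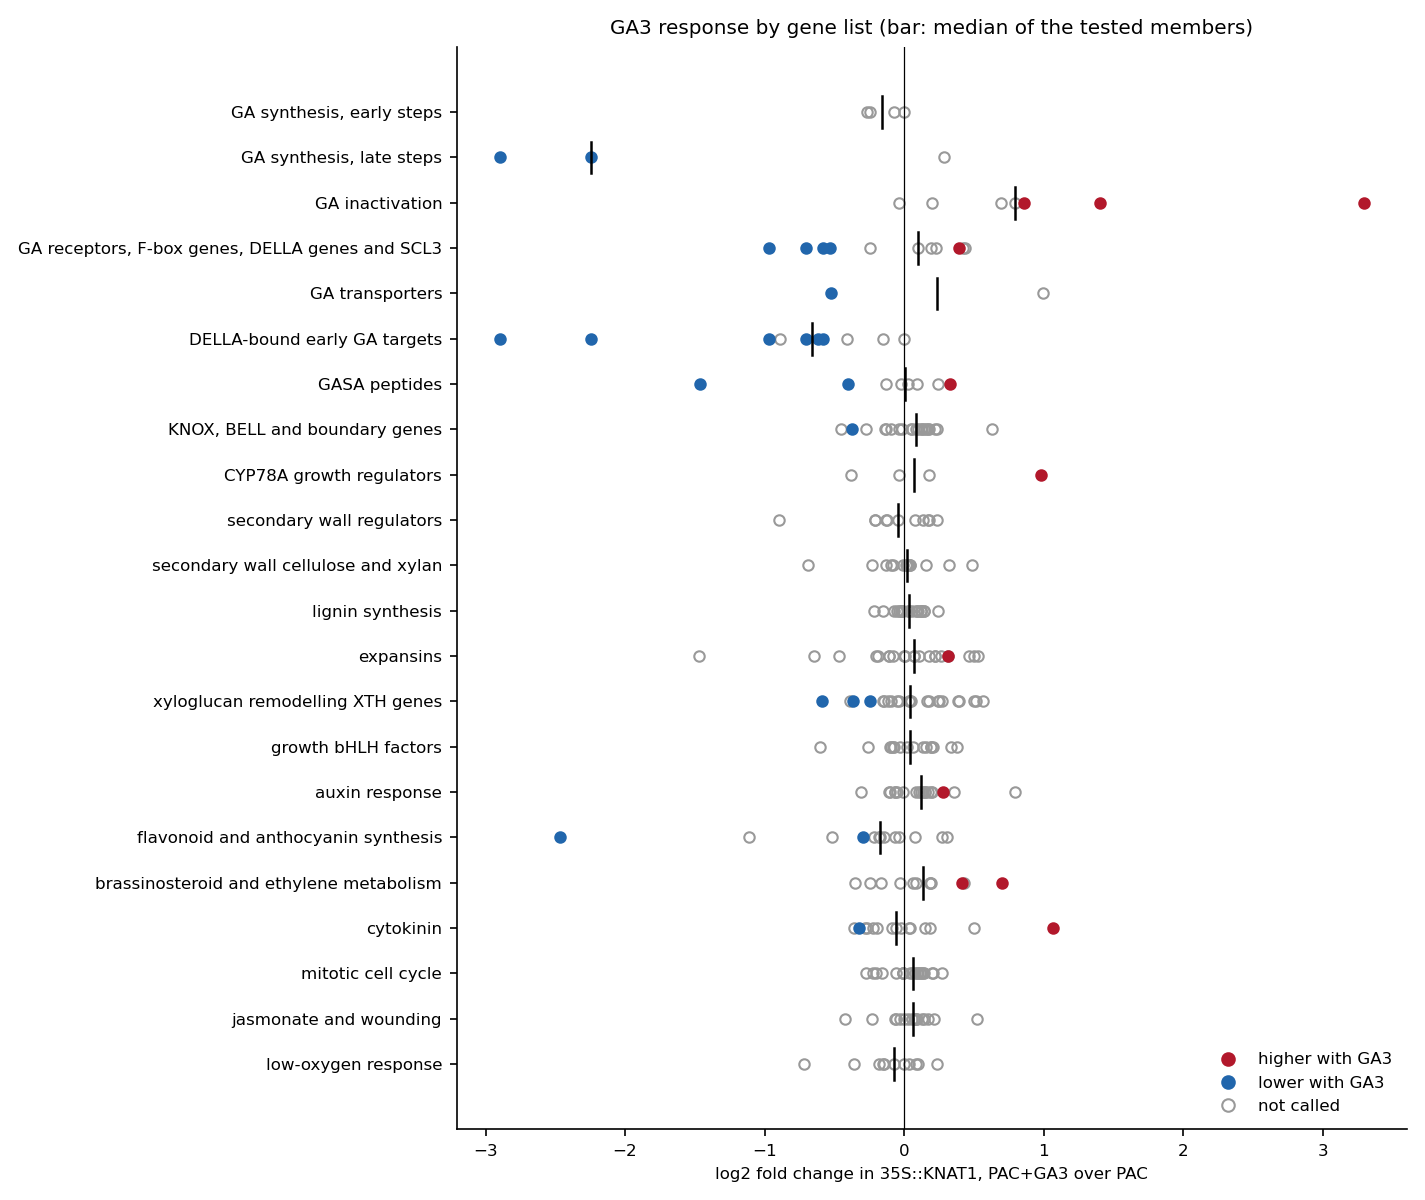
Log2 fold change of PAC+GA3 over PAC in 35S::KNAT1 (horizontal axis) of each measured member of 22 gene lists (rows), with filled red points called higher, filled blue points called lower, open points not called and a black bar at the list's median. Late synthesis, the early DELLA-bound targets and GA inactivation have medians of -2.24, -0.66 and 0.80. The secondary wall and lignin lists hold open points only, where 1.54% of all genes tested were called.

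Outside the lists, the largest rises named by rule were spread over several functions. SAG13, a senescence-associated reductase gene, stood at 5.13, 2.78 and 4.11 CPM in PAC+GA3 and at 2.15, 1.96 and 1.90 CPM in PAC, a rise of 0.98 ± 0.22 (adjusted p = 0.044). ASN1, an asparagine synthetase gene of carbon-starved tissue, stood at 7.45, 3.41 and 5.08 CPM in PAC+GA3 and at 3.27, 1.96 and 3.17 CPM in PAC, a rise of 0.92 ± 0.19 (adjusted p = 0.027). Both were highest in the PAC+GA3 library of pair A, and neither was called without pair A or without the block. A desaturase gene of the ADS family, AT1G06080, rose with more even values, 25.2, 19.5 and 22.6 CPM in PAC+GA3 and 12.5, 13.7 and 11.2 CPM in PAC (0.84 ± 0.11, adjusted p = 0.0019), and was called without the block. UPB1, a bHLH gene that regulates peroxidases in the root, rose by 0.78 ± 0.17 (adjusted p = 0.042), PAD3, the last enzyme of camalexin synthesis, by 0.72 ± 0.12 (adjusted p = 0.0078), and ATC, a relative of the flowering repressor TFL1, by 0.64 ± 0.10 (adjusted p = 0.0053). Without the block PAD3 and ATC were called and UPB1 was not.

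Among genes with a symbol, the largest falls not yet described were those of NAP and CSLB03. NAP, a NAC gene of leaf senescence, stood at 0.579, 0.896 and 0.613 CPM in PAC+GA3 and at 1.29, 2.45 and 2.64 CPM in PAC, a fall of -1.58 ± 0.32 (adjusted p = 0.029). CSLB03, a cellulose synthase-like gene, stood at 2.98, 4.66 and 2.54 CPM in PAC+GA3 and at 7.58, 10.8 and 8.99 CPM in PAC, a fall of -1.42 ± 0.16 (adjusted p = 0.0012). Neither gene had overlapping groups. BZS1, a B-box zinc finger gene, fell by -1.24 ± 0.24 (adjusted p = 0.022), AIG1, a gene of the immune-associated GTPase family, by -1.21 ± 0.19 (adjusted p = 0.0069) and TRM13 by -1.12 ± 0.20 (adjusted p = 0.017). ST2A, the sulfotransferase of 12-hydroxyjasmonate, stood at 46.3, 27.1 and 40.7 CPM in PAC+GA3 and at 77.2, 65.5 and 81.8 CPM in PAC, which made it the most abundant of the large falls (-0.99 ± 0.09, adjusted p = 0.0012). CYP96A12, a P450 gene, had narrow groups, 10.3, 10.8 and 10.9 CPM in PAC+GA3 and 19.1, 21.4 and 20.4 CPM in PAC, a fall of -0.93 ± 0.09 (adjusted p = 0.0012). Without the block NAP, BZS1, TRM13 and ST2A lost their calls and CSLB03, AIG1 and CYP96A12 kept theirs.

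**Figure D4:**
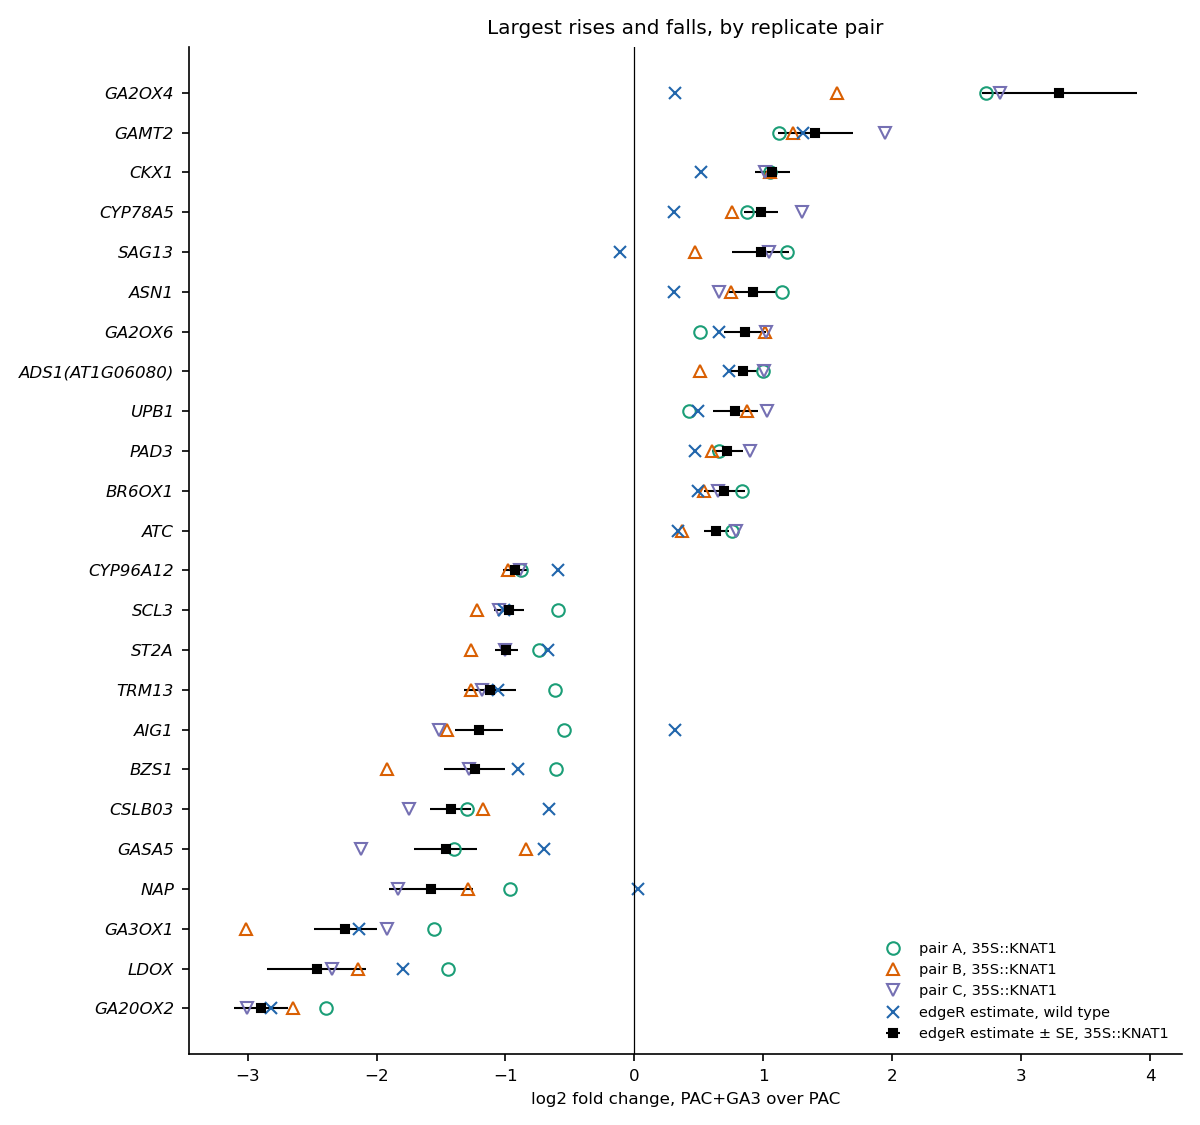
Log2 fold change of PAC+GA3 over PAC (horizontal axis) for the 12 largest rises and 12 largest falls by the naming rule (rows), with open symbols for the 3 replicate pairs of 35S::KNAT1, black squares with SE bars for the edgeR estimate and blue crosses for the estimate in wild type. The rule admits only genes with 1 sign in all pairs, and CKX1 and CYP96A12 have the narrowest spread between pairs.

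The response of 35S::KNAT1 was also set beside that of wild type. A test of the difference between the genotypes' GA3 effects over all 12 libraries called 3 of 19879 genes (0.0151%), 1 of which, AT1G29660, was among the 297. In that 12-library fit, 285 of the 297 had the same sign in wild type, against 63.2% of all genes. There 96 were also called in wild type with the same sign and 0 with the opposite one. That fit called 238 genes in wild type (1.2%) and 155 in 35S::KNAT1. The 297 came from the fit of 6 libraries, so 297 and 238 are not to be compared. The interval of the difference left out 0 in 62 of the 297 (20.9%), against an unadjusted p below 0.05 in 3.86% of all genes. That was 768 genes, where 994 would be expected without any effect. The 297 were chosen on 35S::KNAT1, so these shares are a description. For the called genes of GA synthesis, inactivation and signalling other than GA2OX4, the interval of the difference, 35S::KNAT1 minus wild type, held 0. The difference was -0.08 for GA20OX2 (95% interval -0.90 to 0.74), whose fall in wild type was -2.82 ± 0.24, and -0.10 for GA3OX1 (-0.97 to 0.77), at -2.14 ± 0.26 in wild type. SCL3 differed by 0.04 (-0.31 to 0.39), GID1A by -0.08 (-0.34 to 0.18), GAI by -0.03 (-0.28 to 0.21) and GA2OX6 by 0.20 (-0.29 to 0.69). A missed threshold does not show equal effects.

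Some other named genes had an interval of the difference wholly on one side of 0 and an adjusted p of 1. GA2OX4 differed by 2.98 (1.08 to 4.88), with 0.99, 1.08 and 1.84 CPM in PAC+GA3 and 0.00, 0.245 and 0.106 CPM in PAC in 35S::KNAT1, and 0.584, 1.44 and 0.636 CPM in PAC+GA3 and 0.173, 0.682 and 1.32 CPM in PAC in wild type. CYP78A5 differed by 0.67 (0.24 to 1.10): in wild type it stood at 12.5, 13.9 and 10.09 CPM in PAC+GA3 and at 7.54, 12.4 and 9.87 CPM in PAC, with overlapping groups. NAP differed by -1.61 (-2.63 to -0.59), CSLB03 by -0.76 (-1.26 to -0.25), GASA1 by -0.36 (-0.60 to -0.11) and GASA5 by -0.76 (-1.42 to -0.11). CKX1 differed by 0.56 (0.10 to 1.01), ASN1 by 0.61 (0.14 to 1.08), AIG1 by -1.52 (-3.02 to -0.02), ST2A by -0.32 (-0.64 to -0.01) and XTH32 by -0.31 (-0.57 to -0.05). After adjustment over all genes none of these differences passed, so they are not called.

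**Figure D5:**
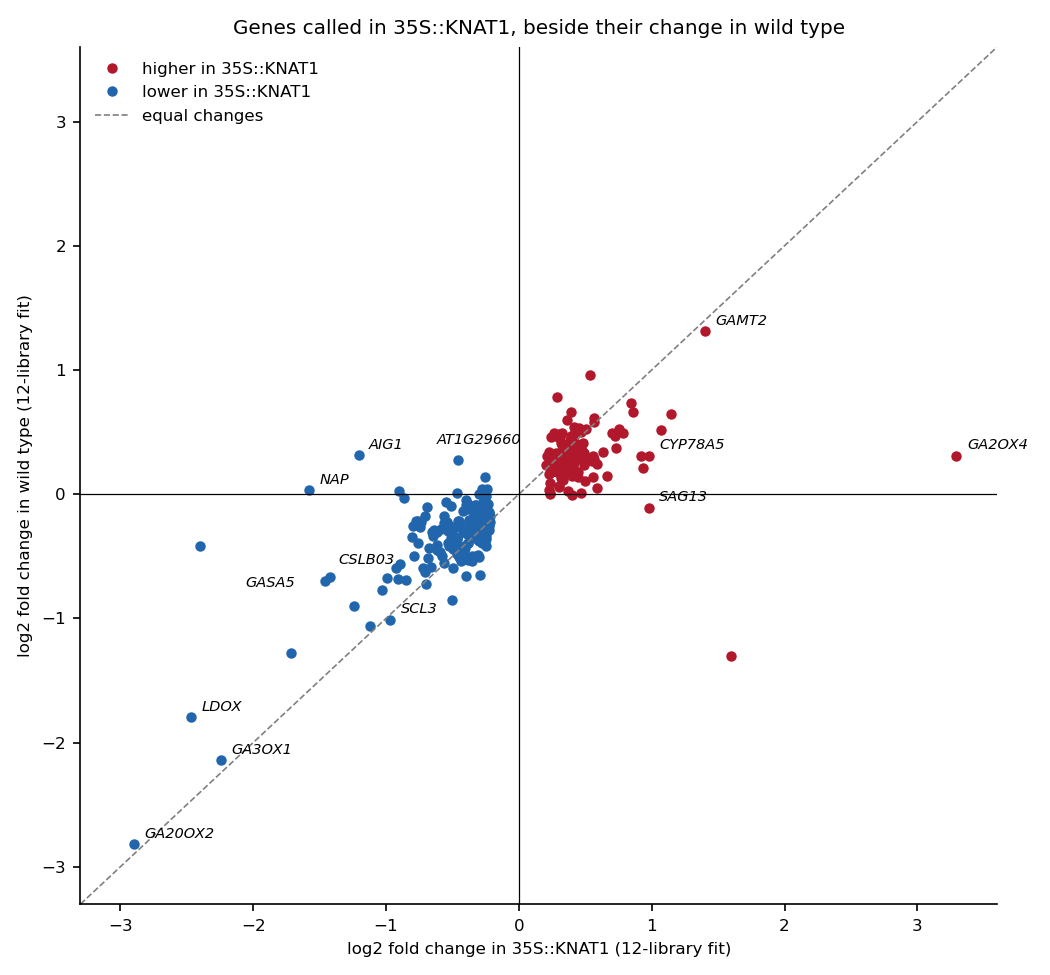
Log2 fold change of PAC+GA3 over PAC in 35S::KNAT1 (horizontal axis) and in wild type (vertical axis), both from the 12-library fit, for the 297 genes called in 35S::KNAT1, red where higher and blue where lower; the dashed line marks equal changes. The points of GA20OX2, GA3OX1 and SCL3 lie close to the line, and 285 of the 297 genes have the same sign in both genotypes.

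Markers of tissues were set beside these results. Green tissue markers summed to between 21400 and 27200 CPM in PAC+GA3 and between 21000 and 27200 CPM in PAC. Of 10 such markers 2 rose, against 0.652% of all genes tested. They were LHCB2.1, by 0.20 ± 0.05, and LHCB2.2, by 0.27 ± 0.05, genes of near-identical light-harvesting proteins between which reads may have been split. Root and root hair markers summed to 167, 110 and 96.5 CPM in PAC+GA3 and to 104, 94.5 and 100 CPM in PAC. All 8 of them had positive values (median 0.28) and 0 were called; the highest sum was in the PAC+GA3 library of pair A, the one with most rRNA. Xylem markers summed to 112 to 117 CPM in PAC+GA3 and 106 to 122 CPM in PAC, and phloem, guard cell and shoot meristem markers gave 0 calls. All 5 guard cell markers had positive values (median 0.17), with sums of 31.0, 36.2 and 42.9 CPM in PAC+GA3 and 35.0, 33.4 and 33.7 CPM in PAC. Seed and embryo markers were at or near 0 in all 6 libraries, below 1 CPM in sum. The part of tissue make-up in the changes given above was not tested.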

How the data were processed

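Raw counts of reads per gene were deposited by the authors, 1 column per library, without pooling, with TAIR10 coordinates. The submitters' processing notes list TopHat2 2.1, cutadapt 1.8.3, edgeR 3.0.2, FastQC 0.11.5 and DESeq2 1.16.1 with no roles. How strand was treated in counting is not stated, so overlapping genes (4 pairs among those called) and near-identical copies may have shared reads. The labels' protocols name Trizol as well as RNeasy and an unstranded as well as a stranded kit.

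The 6 libraries of 35S::KNAT1 were fitted here in edgeR 4.0.16 (R 4.3.3, filterByExpr minimum count 10, TMM scaling, robust quasi-likelihood test) with the replicate letter as a block, leaving 2 residual degrees of freedom. A call was a Benjamini-Hochberg adjusted p below 0.05, taken over every gene in the fit. Each SE was obtained from the log2 change and F. CPM levels were TMM-scaled over 12 libraries, and pair values used a prior count of 2. The fit was tested on counts simulated with a common dispersion for all genes and no library set apart. It called 66 of 93 changes of 0.5 on the log2 scale and 103 of 107 changes of 1 with the right sign. Of its calls 3.98% were false. Replicate 1 of PAC+GA3 stood apart in the real data, so the simulation does not vouch for the calls made here. The letters are shared by all groups in the labels, and deviations from group means correlated at 0.182, 0.151 and 0.22 within letters and at -0.158 to -0.0529 across them. Deviations of a group's libraries cancel out for each gene, so the negative values follow largely from the positive ones and are no separate evidence. Wild type and the difference between genotypes came from 12 libraries with the block within each genotype. Libraries of a group differed beyond sampling noise (chi-square per degree of freedom 4.56 to 15).

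Named genes were KNAT1, the measured GA synthesis, inactivation, receptor, DELLA and SCL3 genes, up to 3 members of each other list by p, the 12 largest rises and 12 largest falls with a symbol, a mean of 1 CPM in a group and 1 sign in all pairs, and genes called in the difference. XERICO, EXPA1, STM, IQD22, EXPA8, LHCB2.1, LHCB2.2, GA20OX1 and the family members under other observations were named after their values were seen. The members and lists were chosen with earlier results of these data known. Counts of calls in a list, set beside the share of all genes tested, are therefore descriptions. Names came from RefSeq by locus (31902 of 32673 matched), and promoter windows from the RefSeq genome.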

Additional observations from a re-analysis of the deposited data

Results flagged for a closer look

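The GA3 effect differed between genotypes, by the test of the difference over all 12 libraries, in 3 genes. AT1G29660, a GDSL lipase gene, stood at 40.0, 38.5 and 44.3 CPM in PAC+GA3 and at 59.5, 48.5 and 61.5 CPM in PAC in 35S::KNAT1, and at 60.2, 46.4 and 71.2 CPM in PAC+GA3 and 54.0, 33.4 and 61.2 CPM in PAC in wild type. The difference, 35S::KNAT1 minus wild type, was -0.73 (log2, 95% interval -0.97 to -0.50, edgeR adjusted p = 0.038), lower in 3 of 3 pairs of 35S::KNAT1 and without a call in wild type.

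The others were AT2G07687, a chromosome 2 gene annotated as cytochrome c oxidase subunit III, with a difference of 4.90 (3.62 to 6.19, adjusted p = 0.0041), and the plastid gene ATCG00510, photosystem I subunit I, with 3.36 (2.29 to 4.43, adjusted p = 0.048). AT2G07687 had 61, 10 and 7 counts in PAC+GA3 and 6, 4 and 1 in PAC in 35S::KNAT1, and 2, 3 and 7 in PAC+GA3 and 15, 18 and 21 in PAC in wild type. ATCG00510 had 62, 18 and 22 counts in PAC+GA3 and 13, 21 and 7 in PAC in 35S::KNAT1, and 9, 9 and 19 in PAC+GA3 and 17, 48 and 99 in PAC in wild type. Organelle genes took 0.868% of counts in PAC+GA3 replicate 1 of 35S::KNAT1 and 0.944% and 0.676% in PAC replicates 2 and 3 of wild type, against 0.139% to 0.263% in the other 9 libraries. The part of this share in both differences was not tested.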

How the results depend on the processing

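The numbers of replicates paired the libraries, and the block decided how many genes were called. Against 297 calls (126 higher, 171 lower), the fit with no replicate block gave 37 (8 and 29), all 12 libraries with the block shared by all groups 81 (25 and 56), with the block within each genotype 155 (64 and 91) and with no replicate block 22 (3 and 19). The DESeq2 Wald test with the block called 62 (30 and 32) of 13336 genes with an adjusted p. Leaving out 1 pair gave 0 to 609 calls (0 to 280 higher, 0 to 329 lower), and with 0 calls 1891 genes had an unadjusted p below 0.05. DESeq2 size factors, total-count scaling, both other filters and leaving out rRNA and organelle genes kept the count between 239 and 376.

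For the difference between genotypes, 3 calls became 0 with no replicate block, with a shared block and by DESeq2, where 363, 580 and 149 genes had an unadjusted p below 0.05. They became 1 with total-count scaling, 6 with no filter and 0 to 6 without 1 pair. The counts of 0 came without pair A and without pair C, where 1273 and 459 genes had an unadjusted p below 0.05.

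Of the 41 named genes called, 16 were also called without the block, and 38, 28 and 0 without pair A, B and C. By DESeq2 11 of 23 were called, and GA20OX2 and GA3OX1 had no adjusted p there. All 41 kept their sign wherever they had a value, which was nearly fixed by their 1 sign in all pairs. Signs turned only in uncalled genes, where leaving out 1 pair gave -0.0027 to 0.13 for KNAT1, -0.022 to 0.053 for GA2 (-0.020 without pair B), -0.23 to 0.75 for GA3OX2, -0.035 to 0.46 for CYP714A1, -0.19 to 0.28 for CYP714A2 and -0.070 to 0.32 for RGL3, and total-count scaling gave -0.0086 for GA2. Limits: 3 libraries a group, 1 time, and low counts for GA2OX4, LDOX and NAP.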

Other observations

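Several gene families, grouped by name or annotation after the called genes had been seen, held calls mostly in 1 direction, and no test was made of them. Over all genes tested 0.652% were called higher and 0.884% lower, and since the families were picked for their calls, their counts are not to be read against these shares. The ARGOS family, whose small proteins enlarge organs, had all 3 measured members higher. ORS1 stood at 44.6, 30.5 and 30.9 CPM in PAC+GA3 and at 31.9, 22.0 and 18.6 CPM in PAC, a rise of 0.55 ± 0.08 (log2, edgeR adjusted p = 0.0030) in each pair, although the groups overlapped. ARL rose by 0.51 ± 0.07 (adjusted p = 0.0068) and ARGOS by 0.45 ± 0.10 (adjusted p = 0.037). In wild type their values were 0.27 ± 0.15, 0.28 ± 0.09 and 0.53 ± 0.10. Arabinogalactan and fasciclin-like wall proteins had 5 rises and 0 falls among 41 measured members. AGP4 stood at 40.2, 40.0 and 37.5 CPM in PAC+GA3 and at 29.1, 26.4 and 24.1 CPM in PAC, a rise of 0.56 ± 0.07 (adjusted p = 0.0018), and AGP30, AGP12, FLA2 and FLA13 rose by 0.59, 0.29, 0.23 and 0.28. Genes with a pectin methylesterase inhibitor domain had 3 rises and 0 falls of 34, and MLP-like genes 3 rises and 0 falls of 9.

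UDP-glycosyltransferases, which attach sugars to hormones and secondary metabolites, had 6 falls and 1 rise among 109 measured members, of which 44 had positive values. UGT74D1, whose enzyme glucosylates auxin forms, stood at 68.7, 60.8 and 68.6 CPM in PAC+GA3 and at 89.9, 79.1 and 87.5 CPM in PAC, a fall of -0.37 ± 0.05 (adjusted p = 0.0029). UGT76C2, which glucosylates cytokinins, stood at 18.0, 18.1 and 15.7 CPM in PAC+GA3 and at 26.2, 24.4 and 24.5 CPM in PAC, a fall of -0.53 ± 0.08 (adjusted p = 0.0062). UGT73C1 fell by -0.74 ± 0.12 and UGT76E11 by -0.70 ± 0.13. Major facilitator transporters had 6 falls and 1 rise among 96. Light-harvesting genes had 4 rises and 0 falls among 19, all within pairs whose levels differed more than the media did. LHCB2.3, for example, stood at 92.8, 70.8 and 161 CPM in PAC+GA3 and at 75.1, 55.3 and 113 CPM in PAC, a rise of 0.40 ± 0.06 (adjusted p = 0.0030).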
